A study of Mus musculus with 6 samples.

Results

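The clustered protocadherins are cell surface adhesion proteins of the cadherin superfamily, encoded in 3 neighbouring gene clusters named alpha, beta and gamma. Their probes were chosen by name, as every non-control probe whose gene name begins Pcdha, Pcdhb or Pcdhg followed by an isoform number, letter or c-type designation. This gave 45 of the 41174 probes of the array under 33 gene names. Of these, 7 probes were alpha (5 names), 28 were beta (22 names) and 10 were gamma (6 names). Signal played no part in choosing the probes, but the family was taken up with earlier results of these arrays known, so its counts are descriptions.

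The study treated the shaved back of female C57BL/6J mice, aged 6 to 8 weeks, with cream every day for 7 days. One group received 62.5 mg of a cream with 5% imiquimod, an agonist of Toll-like receptor 7 that inflames the skin, and the control group the same amount of vehicle cream. RNA from the whole skin of the back was hybridised to single-colour Agilent arrays, 3 samples a group. No allele or transgene is named for either group, and the labels do not say that the samples of a group came from separate mice, so the p-values rest on a spread between samples that may be technical.

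Which array belongs to which group had to be settled from the values. Each of the 6 scanner files is filed under a sample of the other treatment than the one its own name gives. Each matched the value table column titled with the treatment in its name, at a Spearman correlation that rounds to 1 over 24088 probes, against 0.944 to 0.953 with the column of the sample it is filed under. The arrays were therefore grouped by the matched column's title, and all differences here are imiquimod minus vehicle. Read as filed, every difference would change sign. In the grouping used, Krt6b, a keratin of activated epidermis, was higher with imiquimod by 5.41 on the log2 scale (SE 0.32, limma adjusted p = 0.00146).

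Each clustered protocadherin has cadherin repeats outside the cell, a single membrane span and a tail inside the cell, and binds the same isoform on a neighbouring cell. In the alpha and gamma clusters, a variable exon with its own promoter is spliced to constant exons that all isoforms of the cluster share, so a probe in the constant exons reads many isoforms together. Each beta gene is a single exon with no constant part. The family is best known from neurons, where each cell uses a few isoforms chosen through its promoters, with CTCF and cohesin looping them to distant enhancers, and this combination lets a neuron tell its own branches from those of others.

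The family's probes lay between positions 37114742 and 38001435 of mouse chromosome 18 (mm9, as the array files give it), alpha first, then beta (37426782 to 37680728), then gamma. Whether a probe lies in a coding exon or a UTR was not analysed here, since no annotation of that build was used. Probes were 60 bases long, and the beta probes were poorer in G and C (median 38.3%) than the alpha (50%) and gamma probes (45%). Between probes of different genes, the longest identical run was 23 bases, shared by a Pcdhb6 and a Pcdhb15 probe, followed by 22 bases between Pcdhb5 and Pcdhb6. Every other pair of different genes shared at most 14. The annotation of the Pcdhb18 probe also lists Pcdhb17 and Pcdhb20, so its signal cannot be given to 1 gene. Binding of a probe to RNA of a related isoform was not tested.

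Over the 6 arrays, 61.6% to 67.8% of non-control spots were well above background by the extraction software's own call, and the 75th percentile of their signal ran from 917 to 1166. Levels are given below as a percent of that percentile on the same array. Levels of different probes are not set against each other. Probes that the software called well above background on 3 or more arrays, in either group, were tested, which left 27415 probes and, of the family, 28 (4 alpha, 18 beta, 6 gamma). Slide 1 held all 3 vehicle arrays and imiquimod 1, and slide 2 held imiquimod 2 and 3, so that the difference can be set apart from the slide through imiquimod 1 alone. The software put the negative control signal of vehicle 2 and 3 out of its range.

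Beta protocadherin RNA was detected in skin through more of the probes at the distal end of the cluster than at its proximal end. Of the 28 beta probes, 14 were well above background on all 6 arrays, 8 on none, 2 on 1 or 2 arrays, and the other 4 on 3 to 5. All 9 genes from Pcdhb14 to Pcdhb22 had a tested probe (11 of their 13 probes), whereas 7 of the 15 probes of Pcdhb1 to Pcdhb13 were tested. The probes of Pcdhb1, Pcdhb2, Pcdhb8, Pcdhb10 and Pcdhb11 were never well above background, and neither was a second probe each of Pcdhb5, Pcdhb13 and Pcdhb19. The Pcdhb9 probe was well above background on imiquimod 1 alone, at 4.57, and at most 1.56 on the other arrays. For Pcdhb5, Pcdhb13 and Pcdhb19, therefore, the probes disagreed on whether the gene was detected. The counts by position thus depend on the probes as well as the genes, and the division at Pcdhb14 was not planned beforehand.

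Of the 28 beta probes, 14 were higher in imiquimod-treated skin, 4 were tested and did not pass, and 10 were too dim to test. With limma and Benjamini-Hochberg adjustment at 0.05, the 14 carried 12 of the 22 beta gene names, and 0 were lower (15 and 0 at an unadjusted p under 0.05). The Pcdhb18 probe among them also lists Pcdhb17 and Pcdhb20. Of all tested probes, 11.4% were higher and 9.72% lower. The difference of the tested beta probes had a median of 1.05 on the log2 scale (2.08-fold), against 0.01 over all tested probes, and ran from 0.49 to 1.43 with 1 Pcdhb16 probe, dim on all vehicle arrays, at its bound. Of the 14 beta probes well above background on all 6 arrays, 12 passed, with a median of 0.99. The other calls, that Pcdhb16 probe and Pcdhb3 at the top of the range, reached the filter only through brighter imiquimod arrays. Among the probes too dim to test, those of Pcdhb1 and Pcdhb9 had negative values (-0.49 and -0.27). With background corrected by normexp instead, 12 beta probes passed, beside 11.8% of all tested probes, the median was 0.56, and the 14 had differences of 0.44 to 0.96. Pcdhb3 and Pcdhb4 then did not pass (limma adjusted p = 0.0742 and 0.0633). On 16 of the 18, every imiquimod array stood above every vehicle array, which held for 23.8% of all tested probes. The 16 include that Pcdhb16 probe and Pcdhb3, whose separation the filter favoured. These are levels in whole skin RNA, in which more cells of a type and more RNA per cell cannot be told apart.

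**Figure D1:**
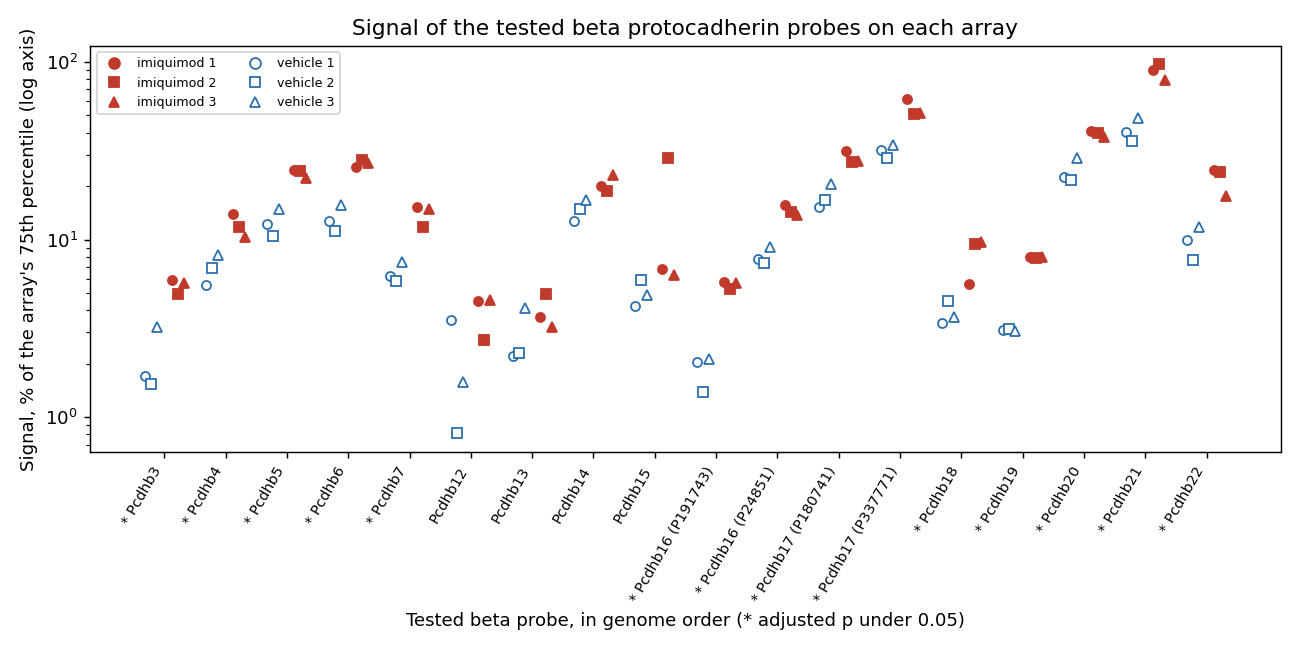
Signal of each of the 18 tested beta probes on the 6 arrays, as a percent of the array's 75th percentile on a log axis, in genome order, with filled red symbols for imiquimod, open blue symbols for vehicle, and a star where the limma adjusted p was under 0.05. The red symbols stand above the blue ones on 16 probes; on Pcdhb12 and Pcdhb13 the groups overlap, and a single array (imiquimod 2, at 28.7) stands apart on Pcdhb15.

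Pcdhb19 gave the narrowest spread. Its probe (chr18:37659175-37659234) read 7.94, 7.89 and 8.00 on imiquimod arrays 1, 2 and 3 and 3.08, 3.14 and 3.04 on vehicle arrays 1, 2 and 3. The groups were far apart, and the arrays of each nearly coincided. The difference was 1.36 on the log2 scale (SE 0.10, n = 3 a group), or 2.57-fold, with a limma adjusted p of 0.00176, and 0.56 under normexp. On the probe of Pcdhb16 at chr18:37639886-37639945 the imiquimod arrays read 5.77, 5.25 and 5.69, and the vehicle arrays 2.05, 1.38 and 2.13. No vehicle array was well above background there, so the vehicle level is a bound, and the probe was tested only because its imiquimod arrays were brighter. The vehicle level was set to the dimmest signal still well above background, or the probe's own where that was higher. On the main processed signal, imiquimod was then at least 2.54-fold higher. The limma adjusted p of 0.00472 came from the fit to the dim vehicle values themselves and does not test this bound. Under normexp its difference was 0.47 on the log2 scale, which is less than that bound, so the bound holds only for the main background correction. The other Pcdhb16 probe, well above background on all 6 arrays, was higher by 0.86 (SE 0.13, limma adjusted p = 0.00857), in the same direction with a smaller difference.

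Pcdhb21, at the distal end of the cluster (chr18:37675857-37675916), read 89.7, 96.8 and 79.5 on the imiquimod arrays and 40.5, 35.6 and 48.4 on the vehicle arrays. The lowest imiquimod array thus stood well above the highest vehicle array. The difference was 1.10 on the log2 scale (SE 0.16, limma adjusted p = 0.00782), or 2.15-fold. Pcdhb6, from the proximal part of the cluster (chr18:37495897-37495956), read 25.7, 28.1 and 26.9 with imiquimod and 12.8, 11.2 and 15.6 with vehicle. The groups did not overlap here either, and the difference was 1.04 (SE 0.15, limma adjusted p = 0.00818). With the slide as a block, Pcdhb21 and Pcdhb6 did not pass (limma adjusted p = 0.0708 and 0.0835). The Pcdhb17 probe at chr18:37647758-37647817 read 61.8, 50.6 and 51.6 with imiquimod and 31.8, 28.7 and 34.0 with vehicle. Imiquimod 1 was the highest array on it, and the difference was 0.79 (SE 0.13, limma adjusted p = 0.0125), against 0.73 (SE 0.15) on the other Pcdhb17 probe.

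The remaining beta genes past the threshold covered both ends of the cluster. Pcdhb3 read 5.93, 4.94 and 5.69 with imiquimod and 1.71, 1.54 and 3.22 with vehicle, a difference of 1.43 (SE 0.29, limma adjusted p = 0.0214), with 1 vehicle array well above background. This probe reached the filter only through its imiquimod arrays. Vehicle 1 and 2 lay below the dimmest signal still well above background, so the 1.43 rests partly on values near background. Pcdhb7 read 15.3, 11.7 and 14.8 against 6.24, 5.81 and 7.496, a difference of 1.10. Pcdhb22 read 24.6, 24.0 and 17.7 against 9.90, 7.62 and 11.7, a difference of 1.19. On these probes no vehicle array reached the lowest imiquimod array. The differences of the probes named Pcdhb4, Pcdhb5, Pcdhb18 and Pcdhb20 were 0.82, 0.93, 1.07 and 0.71 on the log2 scale, with limma adjusted p-values of 0.0317, 0.0129, 0.0313 and 0.0212. The 9 probes past the threshold among Pcdhb14 to Pcdhb22 and the 5 among Pcdhb1 to Pcdhb13 were taken from 11 and 7 tested probes.

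The 4 tested beta probes that did not pass also had positive differences. Pcdhb14 came nearest, at 20.1, 18.8 and 23.2 with imiquimod and 12.8, 14.9 and 16.7 with vehicle (0.49, SE 0.15, limma adjusted p = 0.0658). Its groups did not overlap, but they lay close together. Pcdhb13 was well above background on 2 arrays of each group, and its groups overlapped (0.50, SE 0.29, limma adjusted p = 0.264). Pcdhb12 overlapped too, since vehicle 1, at 3.54, exceeded imiquimod 2, at 2.73. On Pcdhb15 a single array carried the difference: imiquimod 2 read 28.7, while imiquimod 1 and 3 read 6.81 and 6.32 and the vehicle arrays 4.25 to 5.89. A second Pcdhb15 probe, which shares 20 bases of genome with the first and was too dim to test, read 4.98, 3.69 and 3.89 with imiquimod, without a high value on imiquimod 2.

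Single arrays changed the beta count but no direction. Leaving out imiquimod 1, 2 or 3 or vehicle 1 left 8, 7, 9 and 6 beta probes past the threshold, beside 4.75%, 4.72%, 5.05% and 4.31% of all tested probes. Of the 18 tested beta probes, 18 stayed higher without any 1 array, by at least 0.32, and 6 (Pcdhb6, Pcdhb7, both of Pcdhb16, Pcdhb19 and Pcdhb21) passed the threshold each time. For 1 of these 6, a Pcdhb16 probe, the vehicle level is only a bound. With the slide as a block, where the difference rests on imiquimod 1, 3 beta probes passed, beside 2.43% of all tested probes: Pcdhb17 (chr18:37647758-37647817) at 0.97 (limma adjusted p = 0.0496), Pcdhb19 at 1.36 (limma adjusted p = 0.0217), and the Pcdhb16 probe whose vehicle level is a bound. Within slide 1, imiquimod 1 is the whole imiquimod arm and its spread is assumed to equal that of vehicle. There the median beta difference was 0.99 and 0 beta probes passed in limma (13 at an unadjusted p under 0.05), but with 0.073% of all tested probes passing, that count says nothing about the beta probes. Imiquimod 1 stood above all 3 vehicle arrays on 17 of the 18 beta probes, on 1 of the 4 alpha probes and on 4 of the 6 gamma probes, beside 33.7% of all tested probes.

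**Figure D2:**
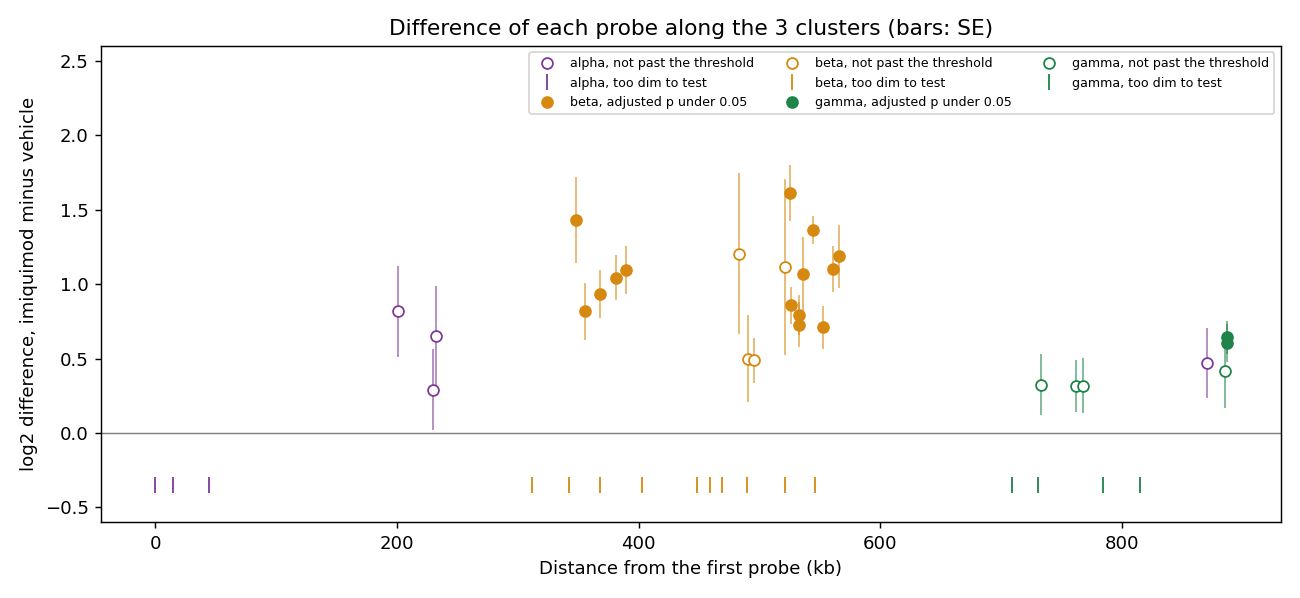
Imiquimod minus vehicle difference (log2, points with SE bars) of the family's tested probes against distance from the first probe in kilobases, filled where the limma adjusted p was under 0.05, with ticks below 0 for probes too dim to test. All points lie above 0, the highest (a Pcdhb16 probe) is drawn at its fitted value though its vehicle level is a bound, and the filled ones are 14 beta probes and the last 2 gamma probes. The ticks lie at the start of alpha, mostly in the first part of beta, and among the variable probes of gamma.

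The alpha protocadherins had positive differences, but 0 of their 4 tested probes passed in limma (1 higher and 0 lower at an unadjusted p under 0.05). Among all tested probes, 11.4% were higher. Of the 7 alpha probes, those of the variable exons of Pcdha4, Pcdha6 and Pcdha9 were never well above background, reading at most 2.01. The 4 tested alpha probes were 3 named Pcdhac2, the c-type isoform at the end of the alpha cluster, and 1 named Pcdha4-g. The Pcdha4-g probe lies within the gamma cluster, so its signal cannot be given to alpha. The annotation of each Pcdhac2 probe lists Pcdha4, Pcdha9, Pcdhac1 and Pcdhac2, so these probes read the part the alpha isoforms share and cannot be told apart by isoform. The c-type isoforms Pcdhac1, Pcdhgc3, Pcdhgc4 and Pcdhgc5 had no probe under their own names.

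The Pcdhac2 probe that spans a junction (positions 37315820 to 37318930) read 6.87, 8.33 and 11.1 on imiquimod arrays 1, 2 and 3 and 4.98, 3.36 and 6.95 on the vehicle arrays. Vehicle 3 exceeded imiquimod 1, so the groups overlapped, and the difference was 0.82 (SE 0.31, limma adjusted p = 0.110). The probe at chr18:37347017-37347076 read 3.90, 5.01 and 6.70 with imiquimod and 3.09, 2.22 and 4.94 with vehicle (0.65, SE 0.34, limma adjusted p = 0.216). It overlapped in the same way. The probe at chr18:37344758-37344817 read 9.69, 13.99 and 16.9 with imiquimod and 10.73, 8.42 and 13.9 with vehicle, and imiquimod 1 lay below vehicle 1 and 3. Its difference was 0.29 (SE 0.27, limma adjusted p = 0.476), and it turned to -0.15 when the slide was a block. On all 3 probes imiquimod 3 was the highest array and vehicle 2 the lowest.

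The probe named Pcdha4-g lies within the gamma cluster (chr18:37984662-37984721), and RefSeq gives that name as a synonym of Gm37013. It read 45.7, 35.0 and 55.1 with imiquimod and 30.3, 26.4 and 41.5 with vehicle, with vehicle 3 above imiquimod 2. The difference was 0.47 (SE 0.24, limma adjusted p = 0.205). With this probe among alpha, as its name puts it, the median difference of the 4 tested alpha probes was 0.56 (1.47-fold). Counted with gamma instead, in an alternative not planned beforehand, the medians were 0.65 in alpha and 0.42 in gamma.

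In the gamma cluster, the probes of variable exons were dim and none passed, while 2 probes in the shared 3′ end did. Of the 10 gamma probes, 5 were well above background on all 6 arrays, 2 on none and 2 on 1 or 2 arrays, and Pcdhgb4 on 3. The tested variable probes were those of Pcdhga4, Pcdhga7 and Pcdhgb4, each higher by 0.32 on the log2 scale with an SE between 0.17 and 0.21. Pcdhga7 read 5.01, 3.92 and 3.59 with imiquimod and 3.22, 2.99 and 3.80 with vehicle (limma adjusted p = 0.233). Pcdhgb4 read 3.06, 3.35 and 3.09 with imiquimod and 2.14, 2.30 and 3.31 with vehicle (limma adjusted p = 0.264). On both, vehicle 3 exceeded at least 1 imiquimod array, and the difference was within the spread between arrays.

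The 3 probes of the shared gamma exons carry the name Pcdhga9, and the annotation of each lists 4 genes. The 2 nearest the end overlap by 40 bases and count as nearly 1 measurement. The probe at chr18:38001356-38001415 read 1366, 1238 and 1237 with imiquimod and 824, 768 and 867 with vehicle. Its groups did not overlap, and the difference was 0.64 (SE 0.11, limma adjusted p = 0.0134), or 1.56-fold. The probe at chr18:38001376-38001435 read 2014, 1815 and 1826 with imiquimod and 1251, 1108 and 1375 with vehicle, a difference of 0.60 (SE 0.13, limma adjusted p = 0.0233), or 1.52-fold. The third, at chr18:37999725-37999784, read 82.2, 54.2 and 82.7 with imiquimod and 51.4, 42.9 and 70.0 with vehicle. Its groups overlapped, with vehicle 3 above imiquimod 2, and its difference was 0.42 (SE 0.25, limma adjusted p = 0.274).

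The gamma calls changed with single arrays: 0 gamma probes passed in limma without imiquimod 1, imiquimod 2 or vehicle 1 (2, 3 and 2 at an unadjusted p under 0.05), 1 without imiquimod 3 (5.05% of all tested probes) and 4 without vehicle 3 (11.9%). With the slide as a block 0 passed in limma, against 3 at an unadjusted p under 0.05. Without vehicle 2 and 3 together, the arrays with negative controls out of range, 0 gamma and 11 beta probes passed, beside 7.68% of all tested probes. The variable probe of Pcdhga1, too dim to test, was well above background on 2 imiquimod arrays and on no vehicle array, at 3.096, 3.31 and 2.71 against 1.501, 0.709 and 1.87. A variable probe of Pcdhga9 was well above background on 1 imiquimod array, and the probe of Pcdhga12 and a second probe of Pcdhga4 on none. Not all of these dim probes leaned toward imiquimod. Their log2 differences were 1.27 for Pcdhga1, 0.12 for Pcdhga9, -0.86 for Pcdhga12 and -0.21 for Pcdhga4.

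**Figure D3:**
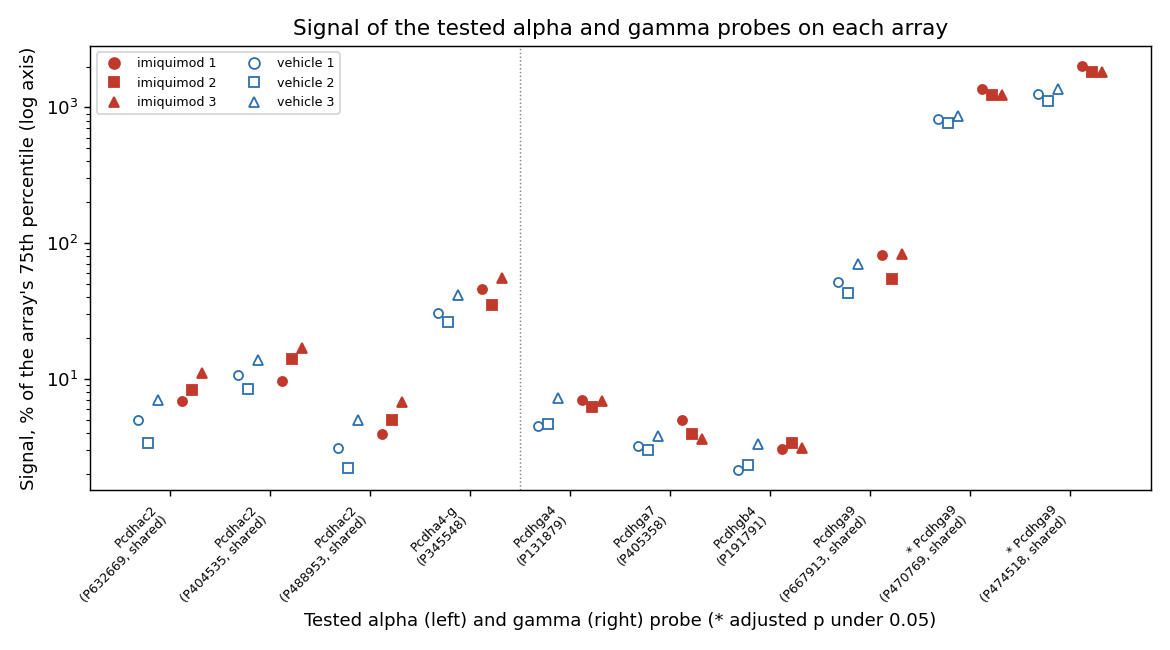
Signal of the 4 tested alpha probes (left of the dotted line) and the 6 tested gamma probes on each array, as a percent of the array's 75th percentile on a log axis, with "shared" marking probes whose annotation lists several isoforms and a star for a limma adjusted p under 0.05. The groups separate on the 2 starred Pcdhga9 probes, whose vehicle arrays read at most 867 and 1375, and overlap on the other 8.

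Across the 3 clusters, 16 of the 28 tested probes were higher (0 alpha, 14 beta, 2 gamma), 0 were lower and 12 did not pass. Of all tested probes, 11.4% were higher and 9.72% lower. The alpha and gamma probes are too few for their counts to be set against that share. All 28 differences were positive, as were 50.6% of those of all tested probes. With Pcdha4-g counted as alpha, the median difference was 0.56 in alpha, 1.05 in beta and 0.37 in gamma. Over all members, those too dim to test included, it was 0.50, 0.81 and 0.32, beside 0.06 over all probes. Whether the clusters differ from each other was not tested, since probes of a cluster are not replicates.

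The arrays of a group were not alike within the clusters. Relative to each probe's mean over the 6 arrays, the beta probes had medians of 0.55, 0.53 and 0.38 on imiquimod arrays 1, 2 and 3 and of -0.56, -0.60 and -0.27 on vehicle arrays 1, 2 and 3, so that the groups stood apart. The gamma medians were 0.40, 0.16 and 0.24 with imiquimod and -0.30, -0.38 and 0.11 with vehicle. The alpha medians were 0.01, 0.27 and 0.63 with imiquimod and -0.35, -0.69 and 0.18 with vehicle, and vehicle 3 exceeded imiquimod 1. In all 3 clusters vehicle 3 was the highest vehicle array and vehicle 2 the lowest.

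**Figure D4:**
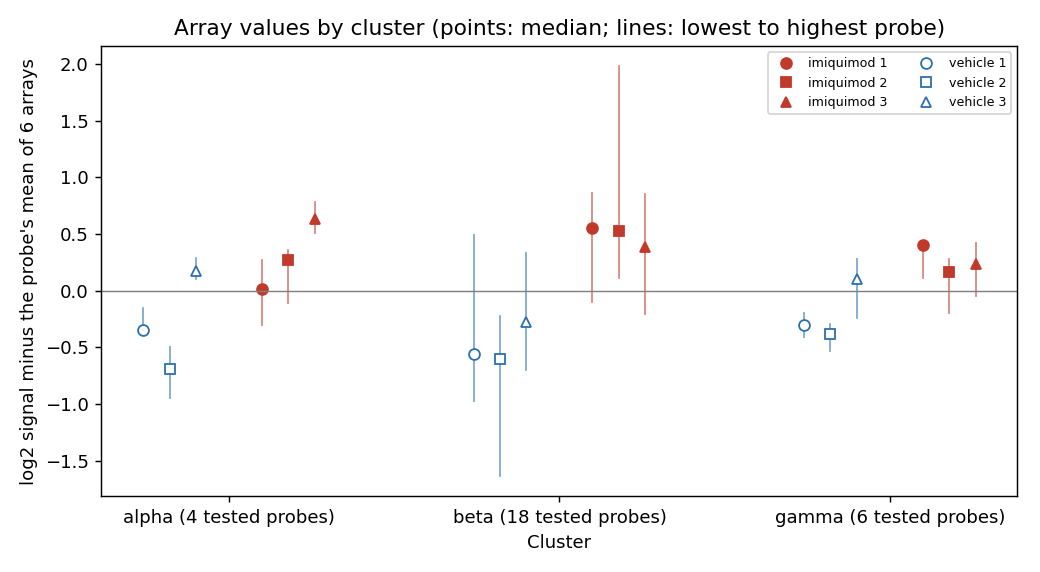
Log2 signal minus the probe's mean over the 6 arrays, for the tested probes of each cluster: points are medians over probes and lines run from the lowest to the highest probe. The vehicle and imiquimod medians stand apart in beta (at most -0.27 against at least 0.38), lie close in gamma (0.11 and 0.16) and overlap in alpha (0.18 on vehicle 3, 0.01 on imiquimod 1).

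The factors known to bind, loop, methylate or silence the protocadherin promoters included 1 that passed the threshold. Of 24 such genes, all tested and among them Ctcf, the cohesin subunits and Smchd1, 0 were higher and 1 lower in limma (1 and 2 at an unadjusted p under 0.05), with a median difference of -0.10. With 1 probe per gene, 13.1% of all tested genes were higher and 10.5% lower. Each gene is read from 1 probe, and other probes of some genes differed: Pds5a reached -0.84, Nipbl -0.58 and Dnmt3a 0.72. The Wapl probes ran from -0.48 to 0.09. The lower one was Tet3, an enzyme that oxidises methylated cytosine (-0.68, SE 0.14, limma adjusted p = 0.0216). Next by p was Ehmt2, a histone H3 lysine 9 methyltransferase, at 0.33 without passing (limma adjusted p = 0.0967).

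Among proteins known to bind, cleave or act downstream of clustered protocadherins, 4 of 22 tested genes were higher and 0 lower (10 and 4 at an unadjusted p under 0.05), with a median of 0.17. With 1 probe per gene, 13.1% of all tested genes were higher and 10.5% lower. Adam10, the metalloprotease that sheds the outer part of gamma protocadherins, was higher by 0.56 (SE 0.11, limma adjusted p = 0.0208). Marcks, a membrane-bound actin regulator downstream of gamma protocadherins, was higher by 0.79 (SE 0.19, limma adjusted p = 0.0367), and Rhoa, a GTPase, by 0.47. These counts too read each gene from 1 probe, and other probes of some genes differed.

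The protocadherins outside the clusters moved in both directions: 3 of 10 tested genes were higher and 3 lower, with a median of -0.21. Of all tested genes, 13.1% were higher and 10.5% lower, which is also the share beside the classical cadherins. Pcdh17 was higher by 1.04 (SE 0.12, limma adjusted p = 0.00433), Pcdh12, found in endothelium, by 1.35 and Pcdh10 by 1.51. Pcdh7 was lower (-1.23, SE 0.17, limma adjusted p = 0.00752), with Pcdh9 at -1.21 and Pcdh19 at -0.96. Of 8 classical cadherins, Cdh5 of the endothelium was higher (1.18, SE 0.19, limma adjusted p = 0.0106) and Cdh4 lower (-1.37, SE 0.36, limma adjusted p = 0.0428), and the median was -0.36.

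Within 1 Mb of the clusters, 38 of 55 other genes were tested, of which 8 were higher and 2 lower, beside the same 13.1% and 10.5% of all genes, with a median of 0.18. The highest was Cd14, a lipopolysaccharide co-receptor of myeloid cells (2.39, SE 0.24, limma adjusted p = 0.00331), followed by p by Gnpda1, an enzyme of hexosamine metabolism (1.03, SE 0.11, limma adjusted p = 0.00344). Taf7, a TFIID subunit whose gene lies between the beta and gamma clusters, was lower at -1.09 (SE 0.12, limma adjusted p = 0.00439). Pcdh1 and Pcdh12 lie in this window too and are counted in both lists.

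**Figure D5:**
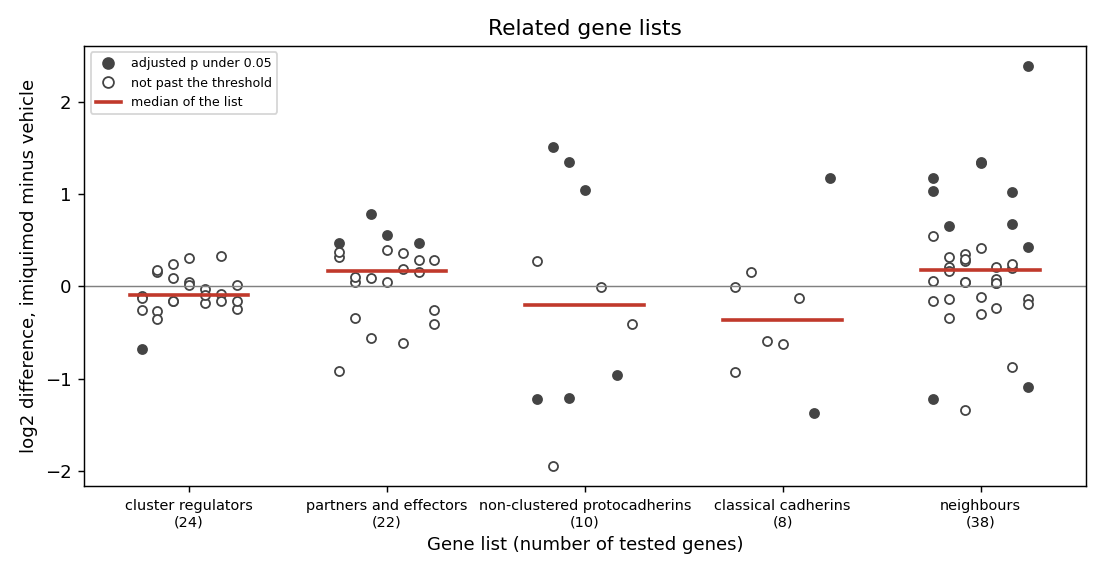
Imiquimod minus vehicle difference (log2) of each tested gene of 5 lists, filled where the limma adjusted p was under 0.05, with red lines at the list medians (-0.10, 0.17, -0.21, -0.36 and 0.18 from left to right). The medians lie nearer 0 than the beta median of 1.05, and the non-clustered protocadherins hold 3 filled points above 0 and 3 below.

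Markers of several cell types differed between the groups as well, and their part in the protocadherin differences was not tested. With 1 probe per gene, 13.1% of all tested genes were higher and 10.5% lower. A single call in a list of this size is near that share, here and in the next paragraph. Markers of Schwann cells and nerve were higher for 1 gene (Mbp) and lower for 3 (Sox10, S100b and Ngfr) of 11 tested, with sums over the list of 2455 to 2730 with imiquimod and 2230 to 3516 with vehicle. The 3 tested Mbp probes ranged from -0.45 to 0.92, so they disagreed in sign. Cdh19 and the neurofilament and peripherin genes Nefl, Nefm and Prph were never well above background. Of the melanocyte markers 1 of 6 (Mitf) was lower, with sums of 1356 to 1734 against 1373 to 11452. Fibroblast markers were higher for 4 of 8, at 103750 to 116840 against 61855 to 87326, and endothelial markers for 3 of 5, at 807 to 877 against 328 to 506. The sums of both lists did not overlap between groups, a pattern that 23.8% of all tested probes had in the same direction.

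The 5 keratinocyte markers were well above background on all 6 arrays and were higher for 3 and lower for 1 of 5, at 159560 to 179410 against 79476 to 103690. Hair follicle markers were lower for 6 of 8, at 357 to 652 against 11281 to 104170, so the vehicle samples were far apart in these genes. Neutrophil markers were higher for 4 of 4 (77982 to 89659 against 379 to 4310) and macrophage markers for 2 of 5 (3829 to 6000 against 978 to 2470). Merkel cell markers were lower for 2 of 3 (22.3 to 101 against 58.7 to 305), with Atoh1 never well above background. Adipocyte markers were lower for 1 of 5 (10939 to 16142 against 13069 to 23138), and 0 of 6 skeletal muscle markers passed in limma, nor did any at an unadjusted p under 0.05 (24541 to 41999 against 24823 to 58872).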

How the data were processed

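Total RNA of 6 whole-skin samples was measured on 1 single-colour array each. The authors deposited scanner files with linear spot intensity (processed signal, background-subtracted and detrended per the file headers) and 1 value table on a log2 scale, whose normalization is not given in the sources used here. The file headers name Agilent Feature Extraction 10.7.3.1, and the submitters' processing notes name 9.1. The members and lists were chosen with earlier results of these data known.

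Control spots and 322 outlier-flagged spots were left out, spots of a probe were averaged, and each array's log2 processed signals were centred on their 75th percentile, which left 41115 probes. Probes well above background on at least 3 arrays (27415) were fitted with limma 3.58.1 in R 4.3.3 (lmFit, eBayes, two-sided, Benjamini-Hochberg over all tested probes, threshold 0.05). The same fit was also run on data simulated from the means and spreads of these probes. Unadjusted p was under 0.05 for 10244 probes. The number of arrays limits the precision.

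Named in full were the 4 tested probes of smallest p and the 2 of highest mean in each cluster, c-type and shared-exon probes, and the 2 genes of smallest p of the cadherin, regulator, partner and neighbour lists. Others were named after their values were seen, and a listed gene is its tested probe of highest mean. The value of 1 gene of the partner list is not reported here. Probes were named through the file's accessions, or by symbol or synonym in the RefSeq table, and positions are mm9. A sum over a marker list adds its genes' percents on 1 array. Alternatives covered normalization, background, filters, variance model, slide, replicate number, value source, probes per gene, flags and single arrays.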

Additional observations from a re-analysis of the deposited data

How the results depend on the processing

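Of 245 alternative values of the 14 named probes, 243 were positive, with 25 no longer past the threshold and 2 newly past it. Many of these signs were fixed in advance. Alternatives in filter, variance model, replicate block or probes per gene kept the main difference and could change only its adjusted p. The 2 negative ones were the Pcdhac2 probe at chr18:37344758-37344817, at -0.15 with the slide as a block and within slide 1. They are 1 estimate counted in both fits, since each rests on imiquimod 1. Beta calls (14) fell to 3 with the slide as a block and 0 within slide 1, and those of the 3 clusters (16) to 3 and 0, where the estimate rests on imiquimod 1. Gamma calls (2) were 0 in both, 1 without the filter on dim probes (5.18% of all probes higher), 1 with 1 probe per gene (13.1%), and 0 without vehicle 2 and 3 together (7.68%), an alternative chosen after seeing the data. The beta median (1.05) was 0.56 under normexp and 0.81 without the filter; the cause was not tested. Leaving out 1 array gave 6 to 14 beta, 0 to 4 gamma, 0 to 1 alpha and 6 to 19 calls in all, beside 4.31% to 12.1% of all tested probes, and beta medians of 0.88 to 1.09. Same-numbered arrays did not deviate together (correlations of -0.07, 0.08 and 0.10 over 27415 probes). No pairing by number was thus seen, though 3 arrays a group on 2 slides cannot exclude one. With a replicate block 10 beta, 0 gamma and 10 probes in all passed in limma, beside 6.05% of all tested probes. Another scaling moved the median of all probes by at most 0.02. Signal near background left 17 members untested and also bears on dim tested ones, as the normexp values show; 3 arrays a group and the slide layout limit the calls.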
